A study of Homo sapiens with 2 samples.

Results

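The methylation of 10 genes that carry the retinoic acid signal was examined in a pair of acute myeloid leukaemia (AML) cell lines. The genes were the retinoic acid receptors RARA, RARB and RARG, the retinoid X receptors RXRA, RXRB and RXRG, the carrier proteins CRABP1 and CRABP2, and the catabolic enzymes CYP26A1 and CYP26B1. The members were listed by name and form 10 of 20163 annotated protein-coding genes. For each gene, every CpG dinucleotide within 2000 bp of an annotated transcription start site (TSS) or inside the annotated gene was taken on GRCh37. This gave 14081 of the 28217448 CpGs listed in the deposited tables, and 12615 of them had more than 5 reads in both lines.

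OCI-AML3 is an established human AML line with a heterozygous mutation of DNMT3A, the enzyme that adds methyl groups to previously unmethylated CpGs. AML5, labelled OCI-AML5 in the sample record, is an established human AML line with wild-type DNMT3A. Cultures of both lines were grown to the supplier's specifications, with no treatment in their labels. They were profiled by whole-genome bisulfite sequencing (WGBS), in which the share of reads that keep a cytosine at a CpG gives its methylation level. Each genotype was represented by 1 line and each line by 1 library, so genotype, line and culture cannot be told apart and no difference below has a replicate check. The comparison asks where the methylation of these genes differed between the DNMT3A mutant and the wild-type line.

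Retinoic acid is made from vitamin A and enters the nucleus with help from CRABP2, where it binds retinoic acid receptors. These receptors sit on DNA as partners of retinoid X receptors, at pairs of short direct repeats called retinoic acid response elements. Without ligand the pair recruits corepressors, and with ligand it recruits coactivators, while CYP26 enzymes oxidise the ligand and end the signal. In myeloid cells the pathway drives granulocytic differentiation, and a fusion of RARA with PML defines acute promyelocytic leukaemia, which responds to all-trans retinoic acid.

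The response elements at these genes are shown first, and the methylation around each is given below with its gene. All TSS windows were searched on both strands for the element called DR5, a pair of half-sites of the AGGTCA type set 5 bases apart, and for DR2, the same pair set 2 bases apart. Capitals mark the element in each GRCh37 plus-strand sequence, and the sequences come from the reference, not from the reads. The RARA element lies at chr17:38497899-38497927, the RARB element at chr3:25469695-25469723 and the RXRB match at chr6:33163242-33163270, with flanking bases included. The distal and proximal CYP26A1 elements lie at chr10:94831668-94831696 and chr10:94833554-94833582.
RARA DR5: caggcgAGTTCAGCGAGAGTTCAgccgca
RARB DR5: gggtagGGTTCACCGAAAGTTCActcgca
CYP26A1 distal DR5: ctgcagGGGTCACAGGCGGGTCAggcccg
CYP26A1 proximal DR5: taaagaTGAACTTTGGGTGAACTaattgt
RXRB DR5: acctgcAGGTCACTCAAAGGTCAcagctc

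The elements in RARA, RARB and CYP26A1 are classical response elements through which retinoic acid raises transcription of its own receptors and of its own catabolic enzyme. A DR5 match was found in 1346 of 146295 windows of 4001 bp centred on annotated TSSs (0.920%), and in 17 of the 77 windows of the members (22.1%), many of which overlap. DR2 matches stood in 13.7% of all windows and in 2 of the 77 (2.60%). A match is a description of the letters and says nothing of binding in these cells.

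A second set shows the start of the longest run of lower CpGs among the members and a stretch with the opposite difference, with each CpG in capitals. The RXRA stretch at chr9:137219673-137219972 holds the first 9 CpGs of a run in an intron. The CYP26B1 stretch at chr2:72376509-72376612 lies upstream of that gene, which is on the minus strand, and holds 9 CpGs.
RXRA, intron: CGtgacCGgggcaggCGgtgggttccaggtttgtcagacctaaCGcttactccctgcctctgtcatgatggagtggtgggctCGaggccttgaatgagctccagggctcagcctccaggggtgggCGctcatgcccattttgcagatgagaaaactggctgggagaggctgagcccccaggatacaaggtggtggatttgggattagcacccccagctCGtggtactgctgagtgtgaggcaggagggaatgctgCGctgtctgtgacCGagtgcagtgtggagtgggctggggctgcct
CYP26B1, upstream: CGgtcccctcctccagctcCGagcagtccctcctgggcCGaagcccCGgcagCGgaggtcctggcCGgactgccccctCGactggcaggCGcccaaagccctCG

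OCI-AML3 had 902802339 methylation calls and AML5 had 894828667, with medians of 27 and 30 calls per nuclear CpG. Taking 3 methylated calls as the smallest number that counts as detected, the floor of a single CpG at the median depth is 11.1% in OCI-AML3 and 10.0% in AML5. This floor was not applied to the levels below, so single CpGs under it are given as measured. Between 81.7% (RARB) and 99.6% (CRABP2) of a member's CpGs passed the minimum of reads. A level below is a mean over CpGs with more than 5 reads in both lines, the SD is the spread over those CpGs and not over cultures, and a difference is OCI-AML3 minus AML5 in percentage points. Single CpGs were compared by Fisher's exact test with Benjamini–Hochberg adjustment over 24454751 CpGs, and CpGs with an adjusted P under 0.05 are called lower or higher in OCI-AML3. That test compares the reads of 2 libraries, not the genotypes. Wilson 95% intervals of pooled calls, like the test, cover counting error only and treat calls that share a read as separate observations.

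Methylation around the starts of 9 of the 10 genes was lower in OCI-AML3 than in AML5, although the differences of CYP26B1 (-0.42 points) and of the exception, CYP26A1 (0.10 points), were close to 0 and changed sign under other settings. RXRA also changed sign, to 0.75, with its most upstream TSS alone. Over the 3681 CpGs in their TSS windows the mean was 41.0% in OCI-AML3 and 48.5% in AML5. The median difference of the 10 genes was -8.39 percentage points, against -4.83 over the TSS windows of 19774 protein-coding genes, of which 88.3% were lower. No member differed by more than 20 points in either direction, where the background is 6.53% of genes lower and 1.04% higher. RARA, RXRG, CRABP1 and CRABP2, 4 of the 10, were lower by more than 10 points, as were 23.9% of all genes, and none was higher by that much, as were 2.97%. With windows of 1000 bp in place of 2000 bp RXRG passed the 20-point rule with a difference of -25.05, and with the most upstream TSS alone RARB passed it at -24.6. RARA lost its 10-point difference with the most upstream TSS alone (-4.62), as did CRABP1 with windows of 1000 bp (-7.14). With every call counted once, RXRA (-15.5) and RARG (-12.8) gained one.

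At single CpGs the windows were less uniform than these means. Of the 3681 CpGs, 673 (18.3%) were called lower and 255 (6.93%) higher, against 12.5% and 4.12% of the CpGs in the TSS windows of all protein-coding genes. The 3681 CpGs had 43.4 (OCI-AML3) and 33.2 (AML5) reads each, where the means over all autosomal CpGs were 32.9 and 32.5. More reads let the test call smaller differences, and the part of depth in these shares was not tested. Over all 12615 CpGs of the members, 2096 (16.6%) were called lower and 584 (4.63%) higher, against 14.7% and 3.86% of the nuclear genome. The calls in the higher direction were not spread evenly over the genes. RARA had 2 higher calls among 534 window CpGs and RXRA 7 among 801, whereas CYP26B1 had 91 among 553.

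**Figure D1:**
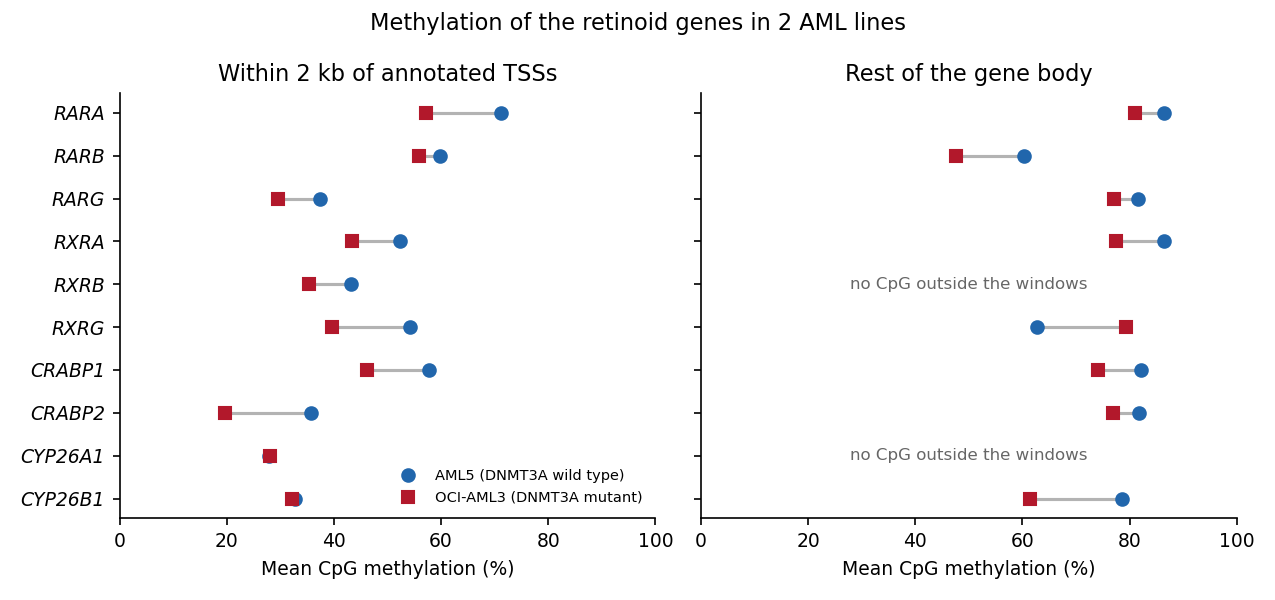
Mean CpG methylation (%) of each gene in OCI-AML3 (red squares) and AML5 (blue circles), within 2000 bp of annotated TSSs (left) and in the rest of the gene body (right), 1 library per line. The lines joining the points span the difference, which runs to the left for 9 of 10 windows and for 7 of 8 bodies, and RXRG bodies run the other way (79.4% against 62.7%).

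RARA, the receptor through which retinoic acid acts in most myeloid cells, had a TSS-window mean of 57.2% (SD 42.6 over 534 CpGs) in OCI-AML3 and 71.3% (SD 40.0) in AML5. Its shares of methylated calls were 55.5% (Wilson 95% interval 54.9 to 56.2) and 70.0% (69.2 to 70.7). Among its annotated starts the difference was largest at an internal one. The 55 CpGs within 500 bp of the RARA-203 start averaged 95.7% in AML5 but 16.3% in OCI-AML3, a difference of -79.3 points. Among 117589 such 1-kb regions at TSSs of protein-coding genes with at least 10 CpGs covered, 265 were as low or lower. RARA-203 starts at the promoter of the receptor form known as RARα2, which is itself induced by retinoic acid.

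A run of 50 neighbouring CpGs in RARA, all called lower, covered the RARA-203 start. Its mean was 11.0% in OCI-AML3, where no CpG exceeded 64.1%, and 96.3% in AML5, where no CpG was below 83.3%. The levels of single CpGs therefore did not overlap between the lines. A run holds only CpGs already called in 1 direction, so part of this separation follows from how runs were picked. The run had 55.3 (OCI-AML3) and 32.5 (AML5) reads per CpG, spans exon 1 of RARA-203 and intron sequence of longer transcripts, and overlaps the antisense gene RARA-AS1. WGBS levels of a CpG do not separate overlapping genes.

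The DR5 element printed above lies inside this run. The CpG within it was methylated in 15 of 37 reads in OCI-AML3 and in 18 of 19 reads in AML5 (40.5% and 94.7%, adjusted P = 0.00104 by Fisher's exact test). All 16 CpGs within 100 bp of the element were called lower, with means of 25.6% and 95.7%. In OCI-AML3 the element sits where the unmethylated sequence at the start gives way to methylated sequence beyond it, as the plot of single CpGs at the 3 starts shows.

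The other starts of RARA differed less. The CpG-dense start of RARA-204 and RARA-206 was unmethylated in both lines, at 0.12% and 0.25% over 72 CpGs. The most upstream start, RARA-201, was methylated in both, at 86.8% and 91.9%. RARA-202, downstream of the run, stood at 83.0% in OCI-AML3 and 95.2% in AML5, with 10 of 74 CpGs lower. RARA-210 was unmethylated within 500 bp in both (0.60% and 1.10%), whereas the 44 CpGs within 2000 bp of it averaged 10.2% and 33.7%.

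**Figure D2:**
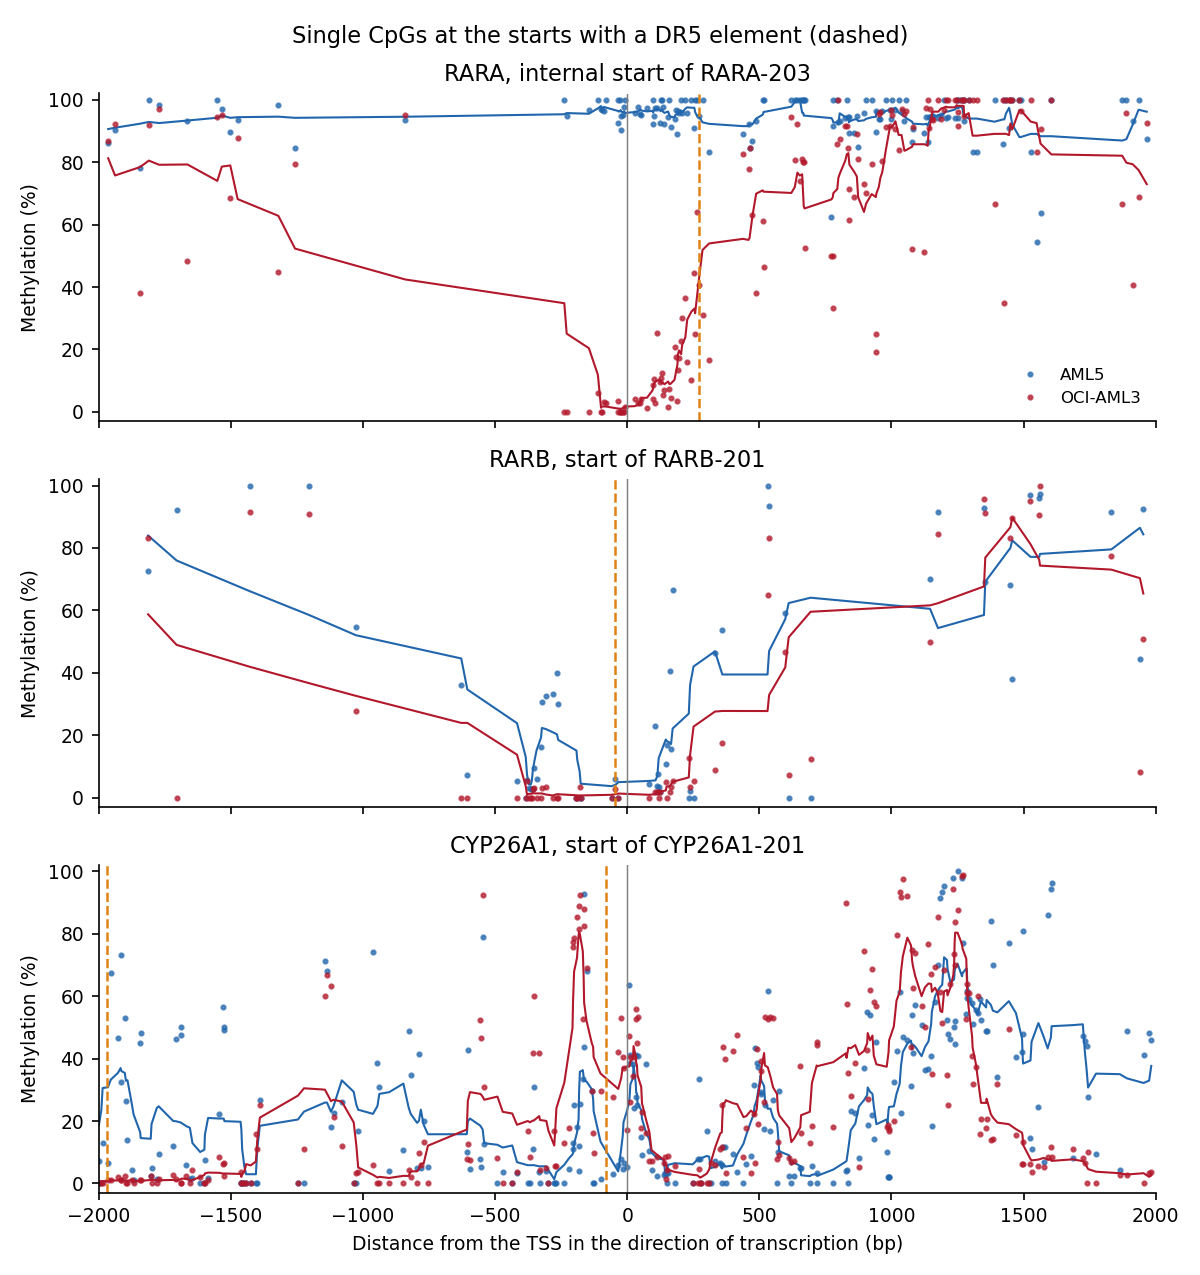
Methylation (%) of single CpGs against distance (bp) from 3 TSSs with a DR5 element (dashed lines), with a running mean over 9 CpGs, in OCI-AML3 (red) and AML5 (blue). At RARA-203 the red points drop to 0 around the start while the blue points stay at or above 83.3% along the run. At RARB-201 both lines are low at the element, and at CYP26A1 red exceeds blue next to the proximal element and lies below it at the distal one.

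RARB, whose main form is induced by retinoic acid through its own response element and is often methylated in carcinomas, was largely unmethylated at that start in both lines. The 38 CpGs within 500 bp of RARB-201 averaged 2.49% (OCI-AML3) and 13.8% (AML5), with 11 called lower and 0 higher. The CpG inside the DR5 element was methylated in 1 of 35 reads and in 2 of 34 reads (adjusted P = 1 by Fisher's exact test), and the 3 CpGs within 100 bp averaged 0.95% and 1.96%. A run of 5 lower CpGs upstream, at chr3:25469431-25469493, had means of 1.27% and 33.3%. Downstream, in an intron, 7 lower CpGs at chr3:25471694-25472169 averaged 26.6% and 85.5%. The whole gene held 6 lower runs and 1 higher run.

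The upstream RARB start used by RARB-202 and RARB-210 went the other way, and both lines were methylated there. The 70 CpGs within 500 bp of RARB-202 averaged 75.2% in OCI-AML3 against 68.5% in AML5, with 4 CpGs called lower and 11 higher. A run of 5 higher CpGs at chr3:24871337-24871391 in the intron beyond it had means of 75.7% and 39.5%. Over all 424 window CpGs RARB stood at 55.9% (SD 36.8) and 59.8% (SD 33.4). The small mean difference of -3.89 points hid 62 lower and 39 higher CpGs.

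RARG, a receptor of stem cells and epithelia, was lower at both of its CpG-dense starts. Around the canonical start, RARG-203, the mean of 48 CpGs within 500 bp was 0.79% in OCI-AML3 against 16.2% in AML5. At RARG-204 the mean of 59 CpGs was 1.41% and 10.1%. The median CpG of AML5 stood at 3.81% and 0%, so many CpGs there were at or near 0 in both lines. At the starts RARG-215 (5.28% and 5.44%) and RARG-209 (94.9% and 89.6%) OCI-AML3 was level or higher. The run next to the first start, chr12:53625700-53625747, held 8 CpGs at 0.89% and 69.0%, with 14.5 and 16.8 reads per CpG. A second run of 12 CpGs at chr12:53613177-53613398 averaged 26.7% and 70.0%.

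RXRA, the main partner of the retinoic acid receptors in blood cells, had a canonical start that was unmethylated in both lines. The 179 CpGs within 500 bp of RXRA-202 averaged 0.13% and 0.09%, and no CpG was called. The difference lay at the edge of this island. A run of 61 lower CpGs, the longest in the members, covered chr9:137219674-137221639, with means of 4.21% and 90.6%. It lay from 1373 to 3338 bp downstream of the RXRA-202 start. The unmethylated domain of OCI-AML3 thus reached further into the first intron than that of AML5.

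A further start inside the gene, RXRA-201, was nearly unmethylated in OCI-AML3 and partly methylated in AML5. The mean of 38 CpGs within 500 bp was 5.64% and 32.1%. From there a series of 7 lower runs reached chr9:137270051, and its longest, 24 CpGs at chr9:137266978-137267986 and 23 CpGs at chr9:137268004-137268514, had means of 1.47% and 79.9%, and of 13.6% and 91.1%. Over the 801 window CpGs RXRA averaged 43.4% and 52.3%, with a median CpG at 21.3% and 78.9%.

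RXRB, the broadly expressed X receptor, was unmethylated at its start in both lines. The mean of 74 CpGs within 500 bp of RXRB-201 was 0.10% and 0.16%. Its run of 7 lower CpGs, chr6:33165516-33165635, covered an inner exon with means of 13.4% in OCI-AML3 and 95.6% in AML5. Of the 4 CpGs near its DR5 match, 1 was called lower, and their means were 77.0% and 98.3%. The windows of this short gene cover its whole length and overlap SLC39A7.

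RXRG, an X receptor of muscle and brain, had the largest share of called CpGs in the TSS windows among the members. Of 96 window CpGs, 43 (44.8%) were lower and 19 (19.8%) higher. These windows were also the most deeply read of the members, with 73.3 (OCI-AML3) and 63.3 (AML5) reads per CpG. More reads let the test call smaller differences, and the part of depth in this rank was not tested. Around the canonical start RXRG-201 the mean of 45 CpGs within 500 bp was 16.5% (SD 25.8) in OCI-AML3 and 48.2% (SD 33.1) in AML5. At the start of RXRG-204, the difference of 40 CpGs was -39.3 points, from 17.3% against 56.6%. A run of 21 CpGs over exon 1, chr1:165414208-165414496, averaged 1.97% and 64.0% at 103 and 76.4 reads per CpG. The levels of the lines did not overlap there, which in part follows from picking called CpGs, and no CpG of OCI-AML3 was above 6.12%. Upstream of the gene, a run of 5 CpGs at chr1:165415617-165416321 was higher instead, at 78.0% against 32.3%.

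Across the 77 annotated starts of the members, 70 had at least 10 CpGs covered within 500 bp. Of these, 7 (10%) were lower by more than 20 points, namely RARA-203, RXRA-201, the 4 RXRG starts and an inner CYP26A1 start, and none was higher by that much. The background is 8.33% of all such TSSs lower and 2.35% higher. Starts of a gene share CpGs, so the 7 are not independent. In RARA, RXRA and RXRB, 6 starts were below 1% in both lines.

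Gene bodies outside the windows were lower in OCI-AML3 in all genes but RXRG. Over 8934 body CpGs of 8 members the mean was 61.0% in OCI-AML3 and 71.1% in AML5, with 1423 (15.9%) lower and 329 (3.68%) higher, against 13.4% and 2.95% of body CpGs of all protein-coding genes. The bodies of 7 of 8 genes were lower, with a median difference of -6.76 points against -4.85 over 17276 genes, of which 92.4% were lower. None passed 20 points, where 7.69% of genes were lower and 0.509% higher. RARB and CYP26B1 were lower by more than 10 points, as were 25.3% of genes, and RXRG was higher by more than 10 points, as were 1.57%.

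The RARB body, which in this annotation spans 876276 bp outside the windows and gives 4870 of the body CpGs, averaged 47.7% (SD 38.7) in OCI-AML3 and 60.2% (SD 35.4) in AML5. In each line this was the lowest level of the 8 bodies. The low level lay before the canonical start, where 3595 CpGs inside the longest transcripts averaged 37.9% (SD 36.9) and 53.6% (SD 35.8), with 740 lower and 70 higher. After the canonical start 1275 CpGs averaged 75.4% (SD 29.0) and 78.9% (SD 26.6), with 135 lower and 73 higher. The body had 24.2 (OCI-AML3) and 30.5 (AML5) reads per CpG, the lowest depth of the 8 bodies in each line, and the part of depth in the difference was not tested.

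The RXRA body averaged 77.5% (SD 30.5 over 2921 CpGs) in OCI-AML3 and 86.5% (SD 24.3) in AML5, with 419 CpGs lower and 82 higher. Its last exon held a run of 31 CpGs at chr9:137331551-137332364 with means of 16.6% and 94.4%. Between RXRA-203 and the canonical start, 30 CpGs at chr9:137212705-137213525 averaged 2.78% and 87.4%. Opposite runs also occurred, of 8 CpGs at chr9:137236221-137236498 (83.0% and 20.2%) and of 12 CpGs at chr9:137301254-137301498 (75.6% and 11.2%). The RARA and RARG bodies stood at 80.9% and 86.4%, and at 77.2% and 81.5%.

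The RXRG body was the exception. Its mean over 276 CpGs was 79.4% (SD 27.1) in OCI-AML3 and 62.7% (SD 32.3) in AML5, a difference of 16.8 points, with 7 CpGs lower and 87 (31.5%) higher. The share of calls was 79.5% (Wilson 95% interval 78.8 to 80.2) and 62.7% (61.8 to 63.5). The same gene was thus less methylated at its start and more methylated along its body in OCI-AML3. A run of 7 higher CpGs at chr1:165392480-165393089, from 1120 to 1729 bp downstream of the inner start RXRG-203, had means of 91.9% and 58.8%. Within 500 bp of that start the direction was opposite, at 35.6% (OCI-AML3) and 61.8% (AML5) over 12 CpGs.

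**Figure D3:**
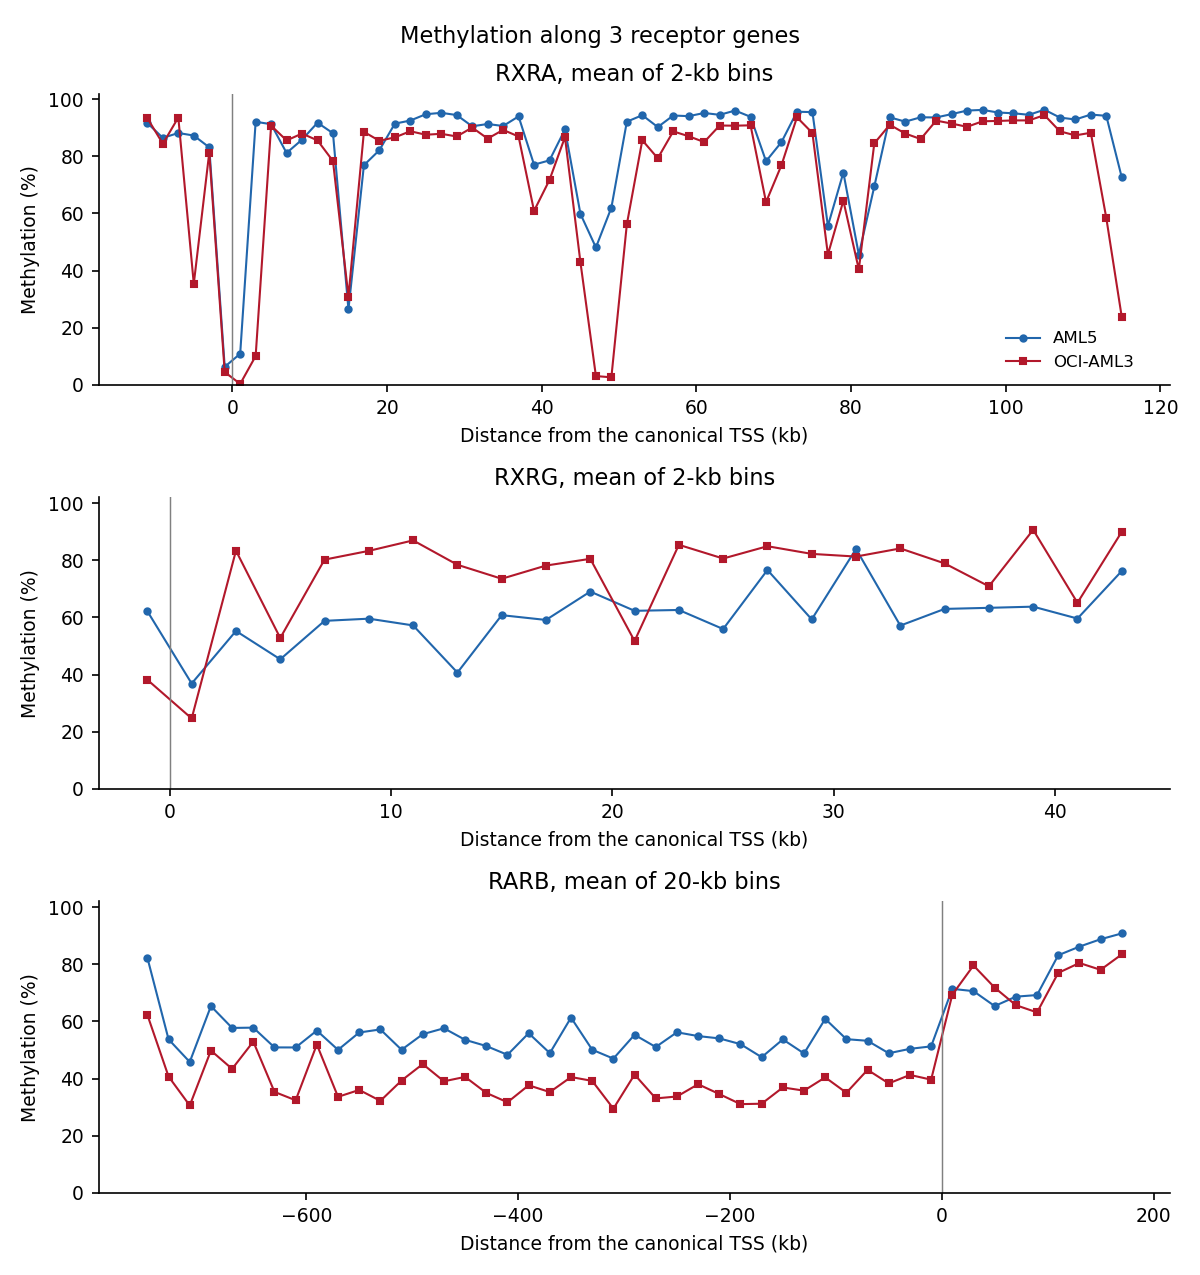
Mean methylation (%) in bins along RXRA, RXRG (2 kb) and RARB (20 kb) against distance (kb) from the canonical TSS, in OCI-AML3 (red) and AML5 (blue). RXRA shows narrow drops of the red line beside shared low bins, RXRG a red line above the blue one along most of the body (79.4% and 62.7%), and RARB a lower red line before the canonical start (37.9% and 53.6%).

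CRABP1, a cytoplasmic carrier of retinoic acid, was higher in OCI-AML3 at its start and lower just inside the gene. A run of 9 CpGs over the start, chr15:78632650-78632726, averaged 84.5% in OCI-AML3 and 33.5% in AML5. Downstream, a lower run of 6 CpGs at chr15:78632860-78632885 averaged 6.75% and 40.9%. Further in, 15 CpGs at chr15:78633324-78633456 averaged 5.47% and 51.8%, and 13 CpGs at chr15:78633493-78633788 averaged 9.24% and 73.9%, both in exon 2 and its borders. Of the 64 CpGs within 500 bp of the canonical start, 24 were higher and 12 lower, with means of 42.0% and 30.4%. The wider window mean, 46.2% (SD 34.0 over 212 CpGs) against 57.8% (SD 28.8), pointed the other way.

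CRABP2, which delivers retinoic acid to its receptors in the nucleus, differed by -16.0 points over the 2000-bp windows. Its 170 CpGs averaged 19.7% (SD 25.2) in OCI-AML3 and 35.8% (SD 32.3) in AML5, with 70 lower and 8 higher. Close to the canonical start the difference was smaller, with 17.7% and 23.5% over 67 CpGs within 500 bp. The lower runs lay mainly upstream of the gene, where 6 CpGs at chr1:156676654-156676835 averaged 22.5% and 87.1%, and 7 CpGs at chr1:156676406-156676501 averaged 9.50% and 48.9%. OCI-AML3 had 67.5 reads per CpG and AML5 50.5 in these windows. The annotated intervals of CRABP2, CYP26A1 and CYP26B1 also overlap genes known only by identifiers.

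**Figure D4:**
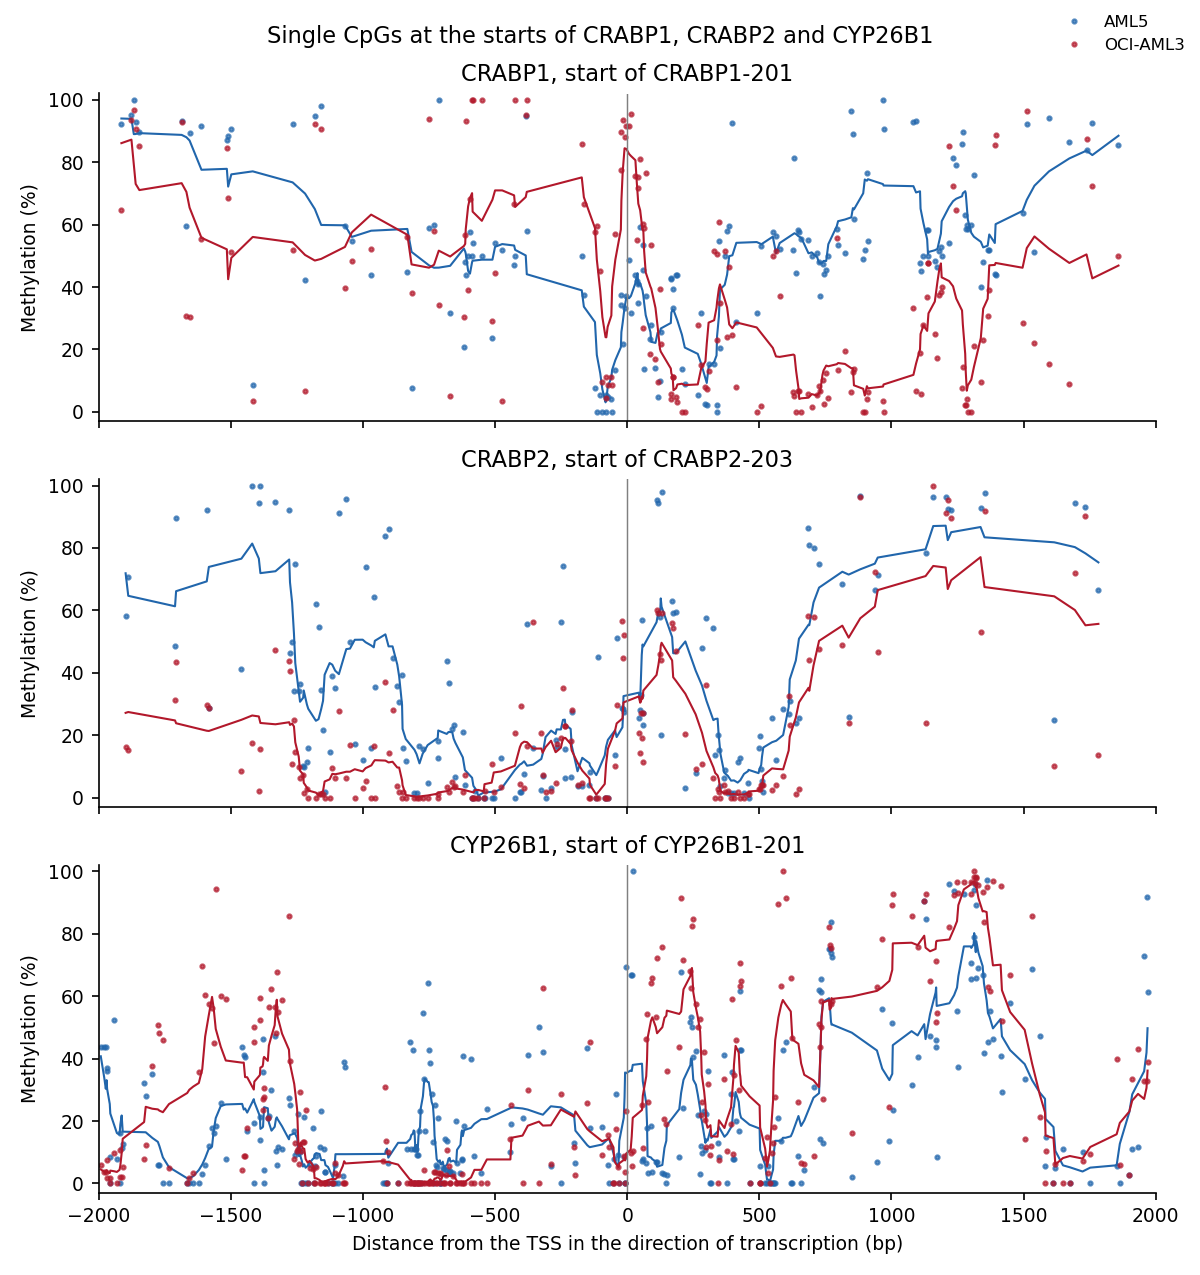
Methylation (%) of single CpGs against distance (bp) from the canonical starts of CRABP1, CRABP2 and CYP26B1, with a running mean over 9 CpGs, in OCI-AML3 (red) and AML5 (blue). At CRABP1 red is above blue at the start (84.5% and 33.5% in the run of 9 CpGs). It is below blue in a run of 6 CpGs shortly after (6.75% and 40.9%) and from 500 bp inwards. At CRABP2 red is mostly below blue upstream, and at CYP26B1 the lines cross several times.

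CYP26A1, the main retinoic acid hydroxylase and a direct target of the receptors, had equal window means made of opposite parts. The means over 293 CpGs were 28.1% (SD 29.7) in OCI-AML3 and 28.0% (SD 27.9) in AML5, yet 58 CpGs (19.8%) were lower and 47 (16.0%) higher. Near the canonical start OCI-AML3 was higher, with 27.7% against 14.3% over 83 CpGs within 500 bp. At the inner start at position 94835386 it was lower, with 30.7% against 51.4% over 47 CpGs.

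The response elements of CYP26A1 also differed in opposite directions. Around the proximal DR5, 90 bp before the canonical start, 12 of 23 CpGs within 100 bp were called higher and none lower, with means of 49.2% (OCI-AML3) and 24.7% (AML5). The element holds no CpG itself. A run of 7 CpGs upstream of it, chr10:94833443-94833471, averaged 82.9% and 15.5%. Around the distal DR5, outside the gene, 10 of 18 CpGs were lower and none higher, with means of 0.79% and 23.4%. The CpG inside the distal element was methylated in 1 of 93 reads and in 5 of 77 reads, which did not pass the threshold (adjusted P = 0.327 by Fisher's exact test). A DR2 match beyond the end of the gene, at chr10:94837941-94837954, had 2 CpGs within 100 bp, both lower, at 20.3% and 94.1%. The other DR2 match, in an intron of RARB at chr3:24898277-24898290, had 1 CpG within 100 bp, at 0% in both lines.

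CYP26B1, the second hydroxylase, gave the same kind of pattern. The means over 553 CpGs were 32.2% (SD 33.6) in OCI-AML3 and 32.7% (SD 29.3) in AML5, with 83 CpGs (15.0%) lower and 91 (16.5%) higher. In the whole gene 6 runs were higher and 8 lower. The longest of each kind had 14 CpGs and lay near an inner start at position 72371544, a higher run over an exon at chr2:72371183-72371276 (83.7% and 22.8%) and a lower run in the adjoining intron at chr2:72372013-72372102 (6.26% and 51.3%). Upstream of the gene, the printed stretch of 9 CpGs averaged 59.8% and 11.9%. The 72 CpGs within 500 bp of the canonical start averaged 31.0% and 21.4%. The body, in contrast, was lower in OCI-AML3, at 61.4% (SD 33.3 over 251 CpGs) and 78.5% (SD 26.3), and there 75 CpGs were lower and 7 higher.

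Taking neighbouring CpGs called in the same direction, at most 300 bp apart and at least 5 in number, the members held 58 runs, of which 43 (74.1%) were lower in OCI-AML3. Over the nuclear genome 84.3% of 91930 runs were lower. Of the 15 higher runs in the members, 6 lay in CYP26B1, 3 in CYP26A1, 1 in CRABP1, none in CRABP2 and 5 in the 6 receptor genes. RXRA and CYP26B1 had 14 runs each, among 3722 and 804 covered CpGs. RARA and RXRB had 1 each, among 939 and 204. The genome held 464 runs of 50 CpGs or more (0.505% of its runs). Of these, 2, in RARA and RXRA, lay in the members (3.45% of their 58 runs).

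Over the same windows 51 further genes of the pathway were examined, from a list of transport, synthesis, breakdown, coregulator and target genes. Of these 43 (84.3%) were lower in OCI-AML3, against 88.3% of all protein-coding genes, with a median difference of -7.61 points against -4.83. Of the 51, 9 (against 6.53% of all genes) were lower by more than 20 points and 1 (against 1.04%) was higher by that much. By role, all 12 genes that oxidise or reduce retinol and retinal were lower, 6 of them by more than 20 points. Those 6 include ADH1C, ADH4 and ADH7, which lie in 1 gene cluster and are not independent. The median of the 12, -20.8, falls in a gap of the values between ADH7 (-29.1) and DHRS4 (-12.5). Of 10 genes for uptake, carriage and storage of retinol, 7 were lower, as were 10 of 12 coregulators and related receptors and 9 of 10 genes known to respond to retinoic acid, counts to be read against the same 88.3%.

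The 4 largest decreases were in retinol-oxidising enzymes. ADH1C, an alcohol dehydrogenase, averaged 19.7% (SD 25.3 over 26 CpGs) in OCI-AML3 and 72.9% (SD 23.2) in AML5. RDH16, a retinol dehydrogenase, averaged 52.5% and 90.0% over 41 CpGs. ADH4, a neighbour of ADH1C on chromosome 4, averaged 51.6% and 87.5% over 81 CpGs, and DHRS9, a short-chain dehydrogenase, 49.7% and 81.6% over 116 CpGs. ADH1C, ADH4 and ADH7 lie together in 1 gene cluster, so their windows are not independent.

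The largest increase was in CEBPE, a transcription factor of late granulocyte differentiation, at 75.9% (SD 32.7 over 105 CpGs) against 47.2% (SD 40.0), with 48 CpGs higher and 1 lower. The cellular retinol-binding protein gene RBP7 followed with 66.4% and 47.3%, then NR2F2, an orphan nuclear receptor that competes for the same elements, with 60.6% and 47.8%. STRA6, the membrane receptor for retinol carried in blood, stood at 83.7% and 75.7%. Of the 3 enzymes that make retinoic acid from retinal, ALDH1A1 averaged 76.2% and 69.5%, ALDH1A2 61.5% and 71.4%, and ALDH1A3 48.8% and 47.8%.

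**Figure D5:**
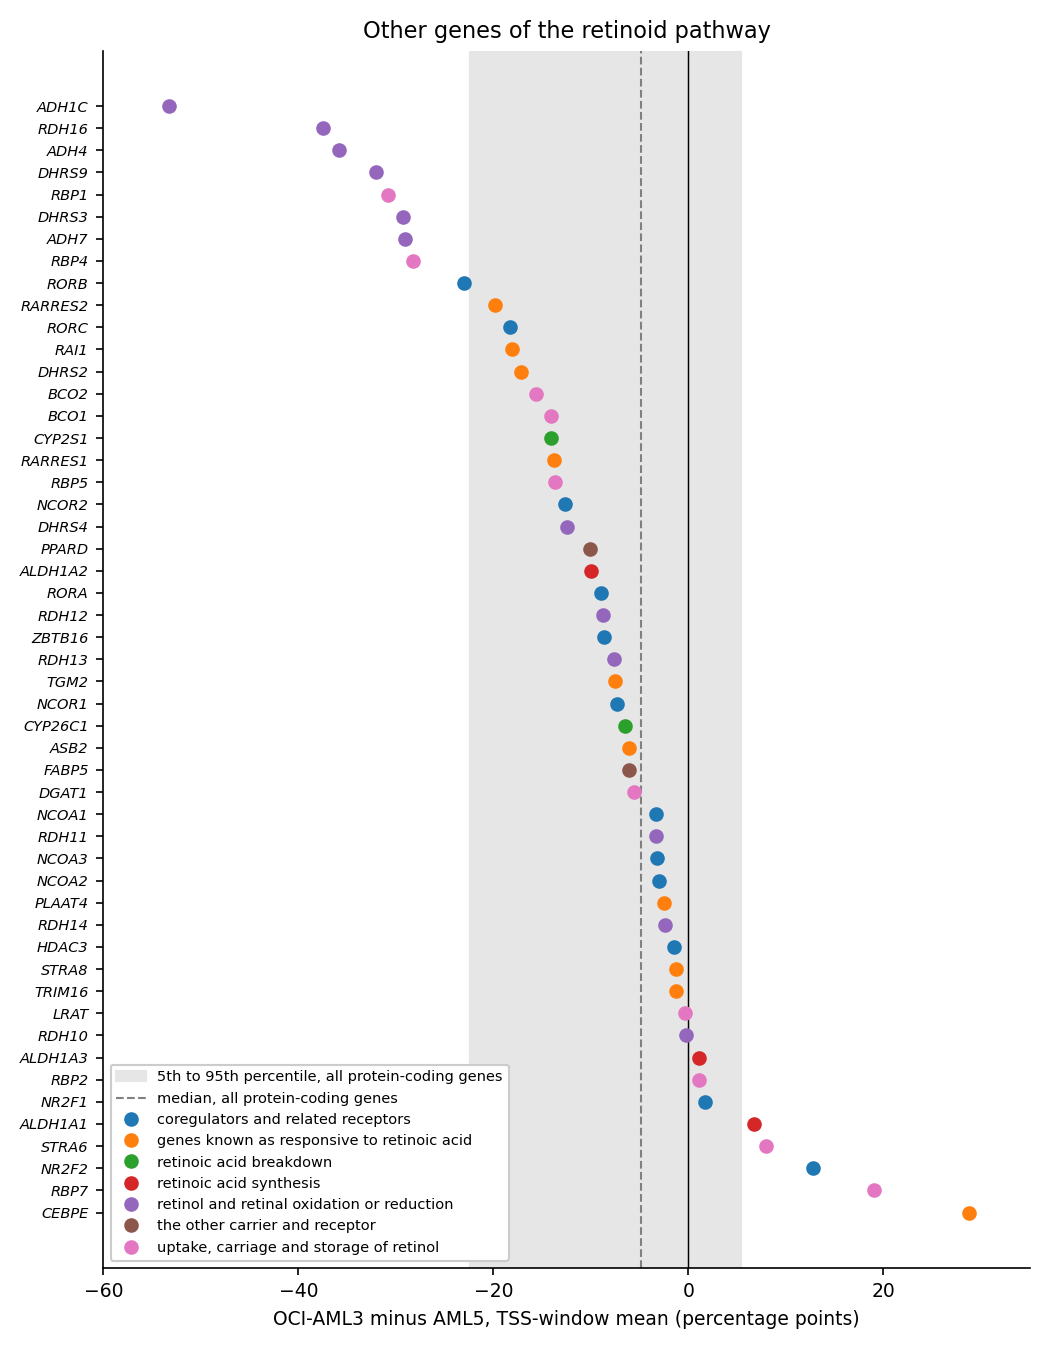
Difference of the TSS-window mean (OCI-AML3 minus AML5, percentage points) for 51 further genes of the retinoid pathway, coloured by role, with the median (dashed) and the 5th to 95th percentile (grey) of all protein-coding genes. The oxidoreductases (purple) all lie left of 0, led by ADH1C at -53.3, and CEBPE is farthest right at 28.7.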

How the data were processed

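WGBS of OCI-AML3 and AML5 was analysed, with 1 library per line. The authors aligned paired-end reads to hg19 (the submitters' processing notes name Bowtie 0.12.8 and Bismark) and deposited raw counts, 1 of methylated and 1 of unmethylated calls for every CpG, with both strands added and without smoothing. Duplicate removal is not given in the sources used here. The methylated column was identified from the mitochondrial genome, where 99.8% (OCI-AML3) and 99.9% (AML5) of calls fell in the other column. All 14081 positions listed in the members are the G of a CpG in GRCh37.

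From the counts, levels were averaged over CpGs with more than 5 reads in both lines. TSSs, exons and gene limits came from a GENCODE annotation lifted to GRCh37. Windows extended 2000 bp on either side of each TSS, and bodies were the rest of the gene. A minimum of 10 CpGs was set for genes and starts. Fisher's exact test (two-sided) was adjusted over 24454751 CpGs and was first tested on simulated data. Named pathway genes are the 4 largest decreases, the 4 largest increases and the 3 ALDH1A genes. The members and lists were chosen with earlier results of these data known. The 500-bp regions, the division of gene bodies at the canonical TSS, runs and response elements were chosen after seeing the data. Alternatives covered reads, weighting, window, TSS and thresholds. Tools were matplotlib 3.10.9, numba 0.67.0, pandas 2.3.3, scipy 1.17.1 and numpy 2.4.6, under Python 3.11.15. A sequence of 1 region of RARA is not reported here.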

Additional observations from a re-analysis of the deposited data

How the results depend on the processing

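The mean difference over the members' TSS windows, -7.54 percentage points, was -9.93 when every call was counted once, -6.42 with windows of 1000 bp and -4.43 with the most upstream TSS alone. Over the gene bodies, -10.12 became -9.77 with at least 10 reads per CpG, -6.64 when every call was counted once and -9.53 with the TSS windows included. The number of members lower by more than 20 points in the TSS windows went from 0 to 1 with 1000 bp (RXRG) and to 1 with the most upstream TSS (RARB), and with a 10-point rule to 4. In the bodies the 10-point rule gave 2 lower and 1 higher. For the pathway list it gave 21 lower in place of 9 and 3 higher in place of 1, and 1000-bp windows gave 2 higher. Counts of called CpGs stayed within 1.5 times, at 1599 to 2020 lower and 441 to 576 higher. For single members, 34 of 40 window values and 24 of 24 body values kept their sign. The 6 exceptions were in CYP26A1, CYP26B1 and RXRA. The cause of these shifts was not tested. With 3 methylated calls taken as the smallest number that counts as detected, the floor of a CpG at the median depth is 11.1% or 10.0%. The floor is lower for deeper CpGs, and no setting replaces a second library of each line.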

Other observations

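Read depth differed among the members. Relative to the autosomal mean of 32.9 (OCI-AML3) and 32.5 (AML5) calls per CpG, RARB had 0.634 and 0.820 times that depth, RARA 1.11 and 0.857, RARG 1.11 and 0.780, and CRABP2 1.85 and 1.45. CYP26A1 stood at 1.75 and 1.28.

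The CpGs of the members also differed in how far they sat at the extremes. In the CYP26A1 windows 41.6% of CpGs in AML5 and 34.5% in OCI-AML3 lay between 20% and 80%, and in the CRABP1 windows 56.1% and 41.5% did. In the RARA windows the same shares were 5.06% and 13.5%. Among the other receptors, RARB windows had 42.7% and 33.0%, and RXRG windows 55.2% and 31.25%. RXRA windows (9.11% in AML5 and 11.9% in OCI-AML3) and RXRB windows (5.39% and 13.2%) were nearer to RARA. RARG windows had 17.5% and 11.2%.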
